A study of Homo sapiens with 6 samples.

Results

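The 9 genes described here encode PDX1, MAFA, NKX6-1, NKX2-2, NEUROD1, PAX6, PAX4, ISL1 and MNX1, the transcription factors by which pancreatic beta cells are made and kept. They were taken by gene symbol from a table of 26485 genes. All 9 passed the filter on low counts that left 16199 genes for testing. The 9 factors and the gene lists below were chosen with earlier results of these data known, so counts of their calls are descriptions only. RNA was sequenced in 6 libraries of EndoC-βH1, an established human beta cell line that makes insulin. In 3 libraries, labelled sgZHX3-3 with the genotype ZHX3 KO, the lentiviral vector lentiCRISPRv2 carried Cas9 and a guide against the first coding exon of ZHX3. In the other 3, labelled Empty with the genotype WT, the same vector held no guide. Both groups were selected with an antibiotic and grown as stable lines, and the guide group rests on 1 guide. The titles number the libraries of each group as biological replicates 1 to 3 but do not say whether they came from separately made lines. The p-values therefore measure only the spread between these libraries, which may be technical.

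These factors bind DNA in the regulatory regions of the same beta cell genes and of each other. PDX1 and ISL1 are homeodomain proteins, NEUROD1 is a basic helix-loop-helix protein that pairs with E-proteins, and MAFA is a basic leucine zipper protein; together they occupy the insulin promoter and drive its activity. NKX6-1, NKX2-2 and MNX1 are homeodomain factors that in large part act as repressors and hold down the programmes of the other islet cells. PAX6 acts in all endocrine cells of the islet, and PAX4 acts during development, where it favours the beta over the alpha cell fate. ZHX3, the gene named by the guide, encodes a zinc-finger and homeobox protein of a family that binds the A subunit of NF-Y, the factor that reads the CCAAT box.

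ZHX3 RNA was higher in the libraries labelled sgZHX3-3, at 167, 179.98 and 183 CPM (counts scaled to library size), than in the Empty libraries, at 106, 109.6 and 101 CPM. This is a log2 fold change of 0.75 ± 0.0566 (standard error; edgeR adjusted p = 1.62e-05). The RNA level thus goes against a reading of the genotype label as a loss of the transcript, and each direction below is that of the labels. The libraries held 45101454 to 61051884 counts. All 8 beta and endocrine markers were detected, with summed levels of 36504 to 44665 CPM in sgZHX3-3 and 31756 to 39779 CPM in Empty libraries. Of the 8, 3 were called higher (IAPP, PCSK1 and SLC30A8) and 0 lower, against 7.11% and 4.98% of all tested genes. The 4 endothelial markers summed to at most 0.0802 CPM, with KDR and CDH5 at 0 counts. Of 15 acinar markers, 12 lay below 1 CPM in each library and 5 had no count, among them PNLIP and REG1A; the 15 summed to 50.6 to 53.9 CPM in sgZHX3-3 and 44.2 to 49.1 CPM in Empty libraries, with 1 called higher and 1 lower. Summed duct markers (7 genes) ran from 72.7 to 77.5 CPM in sgZHX3-3 and from 66.4 to 73.8 CPM in Empty libraries, stromal ones (7 genes) from 6.42 to 8.65 CPM in sgZHX3-3 and from 6.05 to 6.86 CPM in Empty, and immune ones (4 genes) from 19.1 to 22.98 CPM in sgZHX3-3 and from 14.3 to 19.7 CPM in Empty. None of the tested genes of these 3 lists was called, and their part in the results was not tested.

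To set the factors beside the CCAAT box, the promoter windows in RefSeq (GRCh38.p14; 250 bases before to 50 after a gene's start) were searched for CCAAT on both strands. Windows were given for 7 of the 9 genes, 18 in all because NKX2-2, PAX6, PAX4 and MNX1 have several starts, and 8 of the 18 held the motif. Of 35116 promoter windows in RefSeq, 34.6% held it. A share per gene, where several windows give the motif more chances, was not computed. At least 1 window of each of 6 of the 7 genes held it: those of NKX6-1 and ISL1, the second of 2 windows of NKX2-2, PAX4 and MNX1, and 3 of 9 windows of PAX6. The motif was thus found both in factors called higher below and in NKX2-2 and PAX6, which were not called. The 3 factors with a single start are printed, since for them the window is not a matter of choice. CCAAT and its reverse complement ATTGG are in capitals, each sequence is the gene's own strand from 5′ to 3′, and the intervals are chr4:84499243-84499542 (minus strand), chr5:51383198-51383497 (plus strand) and chr2:181680468-181680767 (minus strand).
NKX6-1: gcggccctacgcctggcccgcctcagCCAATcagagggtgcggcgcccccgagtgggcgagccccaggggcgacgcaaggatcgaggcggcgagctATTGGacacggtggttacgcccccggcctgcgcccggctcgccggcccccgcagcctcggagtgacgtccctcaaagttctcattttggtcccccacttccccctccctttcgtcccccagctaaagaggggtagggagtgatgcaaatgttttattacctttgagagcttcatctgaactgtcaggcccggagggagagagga
ISL1: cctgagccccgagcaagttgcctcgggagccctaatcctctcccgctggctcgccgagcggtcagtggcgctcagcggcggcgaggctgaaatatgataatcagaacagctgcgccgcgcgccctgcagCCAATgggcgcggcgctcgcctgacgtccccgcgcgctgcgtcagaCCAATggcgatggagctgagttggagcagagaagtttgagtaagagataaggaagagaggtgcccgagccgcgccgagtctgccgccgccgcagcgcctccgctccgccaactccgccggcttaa
NEUROD1: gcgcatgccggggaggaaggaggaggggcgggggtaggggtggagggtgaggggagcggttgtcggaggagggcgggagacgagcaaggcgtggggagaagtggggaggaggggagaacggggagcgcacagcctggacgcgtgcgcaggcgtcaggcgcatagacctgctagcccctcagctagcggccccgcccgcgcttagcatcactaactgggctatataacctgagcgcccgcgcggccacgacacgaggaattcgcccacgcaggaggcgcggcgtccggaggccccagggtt
In the NKX6-1 window the motif began 224 bases before the start on the gene's strand and 154 bases before it on the other strand. In the ISL1 window it began 121 and 75 bases before the start, both on the gene's strand. The NEUROD1 window held no CCAAT. It also held no TAAT, the core read by many homeodomains, and no CANNTG, the E-box read by helix-loop-helix proteins, each searched on both strands; 50.2% and 68.7% of all windows hold them. The NKX6-1 window held 1 TAAT and 2 CANNTG matches, and the ISL1 window 2 and 1. TGCTGAC, part of the site read by MAF proteins, was in 1 of the 18 windows, a PAX6 one, and in 4.19% of all windows. Letters in a window do not show that a factor binds there, and these starts are those of RefSeq, which for all 3 printed genes differ from the gene ends in GENCODE given further on; the NEUROD1 window lies inside the GENCODE gene.

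Of the 9 factors, in sgZHX3-3 libraries 6 were called higher and 0 lower (edgeR's quasi-likelihood test, Benjamini-Hochberg adjusted p below 0.05 over all 16199 genes). Over all tested genes 7.11% were called higher and 4.98% lower. PDX1, MAFA, NKX6-1, ISL1, MNX1 and PAX4 rose, by 17.3% for ISL1 up to 78.1% for PAX4, while NKX2-2, NEUROD1 and PAX6 did not pass. The median log2 fold change was 0.40 over the 9 factors and −0.002 over all tested genes. For 5 of the 9 every sgZHX3-3 library lay above every Empty library, and this held for 16.0% of all tested genes. The number of calls moved with the libraries used. With Empty 2 and 3 both left out 0 of the 9 passed by edgeR, and 4 had an unadjusted p under 0.05. Without Empty 1 there were 7, without sgZHX3-3 library 1 there were 3, without sgZHX3-3 library 2 or 3 there were 2, and without Empty 2 or Empty 3 there was 1. Over all genes 1151 were higher with every library, 1792 without Empty 1, 559 without Empty 2 and 474 without Empty 3. Without sgZHX3-3 library 1, 2 or 3 these were 1006, 492 and 834. With no filter on low counts 4 of the 9 factors passed, MAFA and MNX1 not. With DESeq2 and limma-voom on all libraries 6 were called higher and 0 lower, and 0 had an unadjusted edgeR p under 0.05 in the lower direction.

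**Figure D1:**
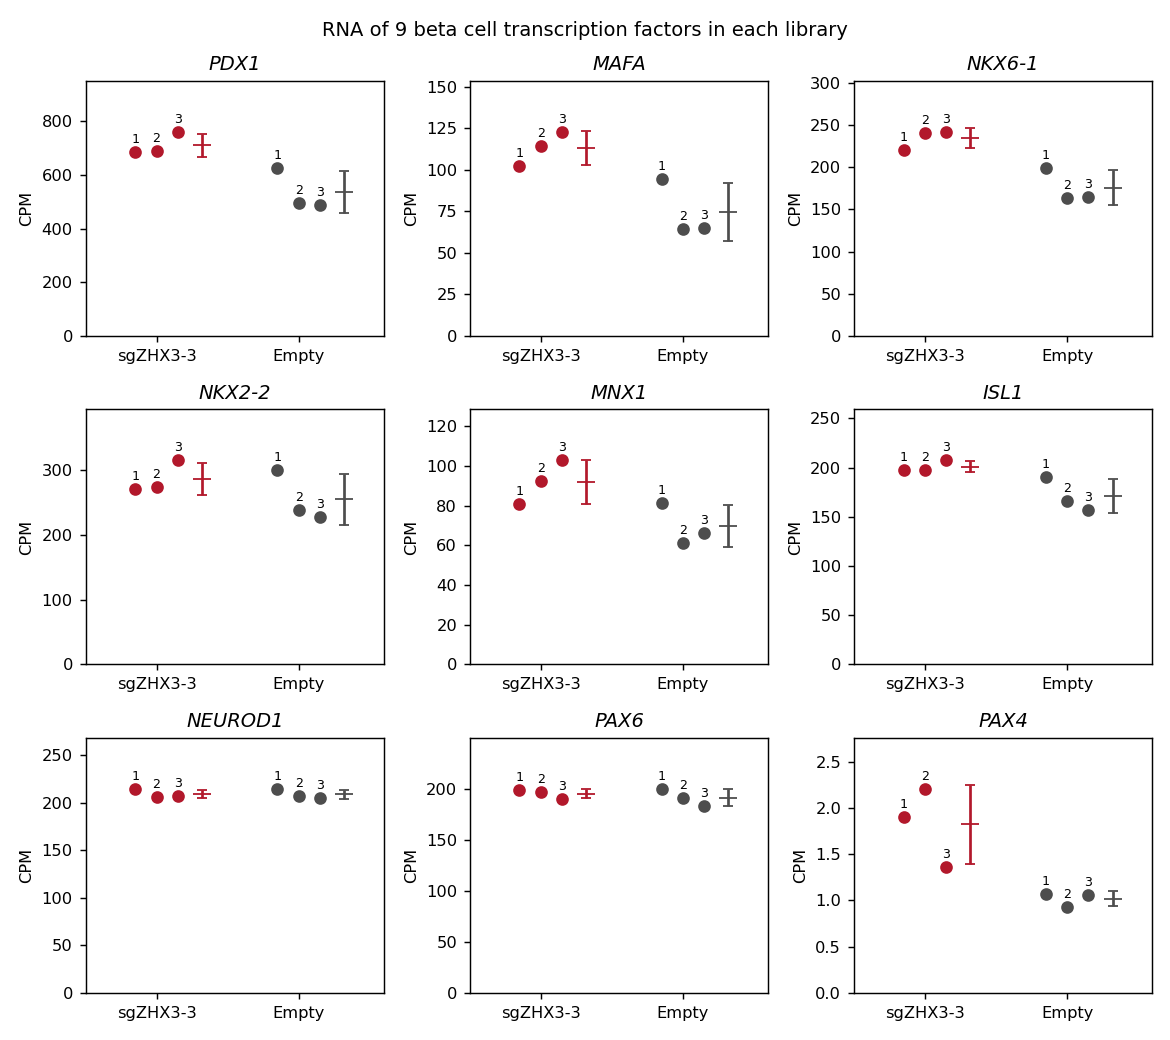
Level of each factor in CPM (vertical axes from 0) in the 3 libraries labelled sgZHX3-3 (red) and the 3 labelled Empty (grey); points carry the replicate number, and bars show mean and SD. Empty 1 lies above Empty 2 and 3 in all 9 panels, and NEUROD1 and PAX6 are level across the libraries.

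PDX1, the homeodomain activator whose loss prevents formation of the pancreas, was the most abundant of the 9. It stood at 685, 688 and 759.5 CPM in sgZHX3-3 libraries 1 to 3, against 625, 496 and 489 CPM in Empty 1 to 3. All sgZHX3-3 libraries were above all Empty ones, and Empty 1 lay nearer to the sgZHX3-3 libraries than to the other Empty ones. The means were 711 ± 42.4 CPM in sgZHX3-3 and 537 ± 76.8 CPM in Empty libraries (SD, n = 3 each), a 1.32-fold difference. On the log2 scale PDX1 rose by 0.41 ± 0.0861 (standard error; edgeR adjusted p = 0.0115). The adjusted p moved past the threshold without Empty 2 (0.0528), without Empty 3 (0.0581) and without sgZHX3-3 library 3 (0.0643), while the log2 fold change stayed between 0.35 and 0.53 with any 1 library left out.

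MAFA, which marks mature beta cells and activates the insulin gene, showed the widest gap among the abundant factors. It had 102, 114 and 122.7 CPM in sgZHX3-3 libraries and 94.6, 64.5 and 64.9 CPM in Empty 1 to 3. The groups did not overlap, and Empty 1 lay 0.54 log2 units above the mean of Empty 2 and 3. The means were 113 ± 10.3 CPM in sgZHX3-3 and 74.7 ± 17.2 CPM in Empty libraries (SD, n = 3 each), a 1.52-fold difference. MAFA rose by 0.60 ± 0.155 on the log2 scale, just inside the threshold (edgeR adjusted p = 0.0490). Without Empty 1 the adjusted p was 1.84e-05 and the log2 fold change 0.81. Without any other single library it did not pass, with adjusted p up to 0.155, nor did it with RLE size factors (0.0501) or with no filter on low counts (0.148).

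NEUROD1, the third of the insulin gene activators, did not follow them. It stood at 214, 206 and 207 CPM in sgZHX3-3 libraries and 214, 207 and 204 CPM in Empty libraries. The groups overlapped fully and the replicates varied by 2.20% in sgZHX3-3 and 2.36% in Empty libraries (coefficient of variation). The log2 fold change was 0.0035 (edgeR adjusted p = 0.974), with a 95% interval from −0.10 to 0.11, which leaves out a change of the size fitted for PDX1. Its sign changed with the scaling, to −0.03 with library totals only.

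NKX6-1, which keeps beta cells from taking on alpha cell genes, was the only one of the 6 called factors to pass whichever single library was left out. It stood at 221, 241 and 242 CPM in sgZHX3-3 libraries, against 199.6, 164 and 165 CPM in Empty 1 to 3. No sgZHX3-3 library was below an Empty one. The means were 234 ± 11.8 CPM in sgZHX3-3 and 176 ± 20.4 CPM in Empty libraries (SD, n = 3 each), a 1.33-fold difference. NKX6-1 rose by 0.41 ± 0.0743 on the log2 scale (edgeR adjusted p = 0.00390) and passed with each single library left out, between 0.36 and 0.52. It was the only one of the 6 to pass without Empty 2 and the only one to pass without Empty 3.

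NKX2-2, a homeodomain repressor needed to form beta cells, was not called. Its levels were 270.4, 274 and 315 CPM in sgZHX3-3 libraries and 300.2, 238 and 227 CPM in Empty libraries. Here Empty 1 lay above sgZHX3-3 libraries 1 and 2, so the groups overlapped. The log2 fold change was 0.17 with a 95% interval from −0.05 to 0.39 (edgeR adjusted p = 0.305). It passed without Empty 1 (0.30, adjusted p = 0.00715) and, with Empty 1 as the sole Empty library, stood at −0.07 (adjusted p = 0.799). NKX2-2 is overlapped on the other strand by NKX2-2-AS1, and no source used here says whether strand was used in counting, so its count is uncertain there.

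MNX1, also called HB9, is a repressor of non-beta genes in beta cells and marks motor neurons elsewhere. It stood at 80.8, 92.3 and 102.8 CPM in sgZHX3-3 libraries and 81.4, 61.4 and 66.4 CPM in Empty libraries. Empty 1 lay above sgZHX3-3 library 1, so MNX1 was the only one of the 6 called factors whose groups overlapped. Its rise was 0.40 ± 0.109 on the log2 scale (edgeR adjusted p = 0.0390). The call held without Empty 1 or sgZHX3-3 library 1 and was lost without each of the other 4 libraries, with adjusted p up to 0.141, and with no filter on low counts (0.0893). The antisense gene MNX1-AS2 overlaps MNX1 and leaves its count uncertain. MNX1-AS1, which lies beside it, stood at 0.30 on the log2 fold scale (edgeR adjusted p = 0.193), and at 0.49 without Empty 1 (0.0116).

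ISL1, the LIM-homeodomain factor of all islet endocrine cells, had the smallest called rise. It had 198, 198 and 207 CPM in sgZHX3-3 libraries and 191, 166 and 157 CPM in Empty libraries. The groups did not overlap, but Empty 1 lay only 0.0732 log2 units below the sgZHX3-3 mean. ISL1 rose by 0.23 ± 0.0676 on the log2 scale (edgeR adjusted p = 0.0429). The call held without Empty 1 (0.00110) and with no other single library left out, where adjusted p reached 0.205, and it did not pass with library totals only (0.0681).

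The PAX genes split. PAX6, which activates insulin and glucagon genes, had 199, 197 and 190.3 CPM in sgZHX3-3 libraries, against 199.8, 191 and 183 CPM in Empty libraries. The groups overlapped, and the log2 fold change was 0.03 with a 95% interval from −0.08 to 0.14 (edgeR adjusted p = 0.751); it was −0.0059 with library totals only. PAX6 is overlapped on the other strand by ELP4 (log2 fold change −0.03, edgeR adjusted p = 0.855) and the noncoding PAUPAR (−0.20, adjusted p = 0.326), which leaves its count uncertain where they overlap.

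PAX4 was the scarcest of the 9. It had 85, 110 and 82 counts (1.90, 2.21 and 1.36 CPM) in sgZHX3-3 libraries, against 50, 55 and 52 counts (1.07, 0.929 and 1.06 CPM) in Empty libraries. All sgZHX3-3 libraries were higher, and here Empty 1 lay with Empty 2 and 3 while sgZHX3-3 library 3 was the lowest of its group. PAX4 rose by 0.83 ± 0.213 on the log2 scale, the widest error of the 9 (edgeR adjusted p = 0.0245). PAX4 passed without Empty 1 or sgZHX3-3 library 3 and was lost without each of the other 4 libraries, with adjusted p up to 0.125. With Empty 2 and 3 both left out the log2 fold change was 0.76 (adjusted p = 0.317).

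**Figure D2:**
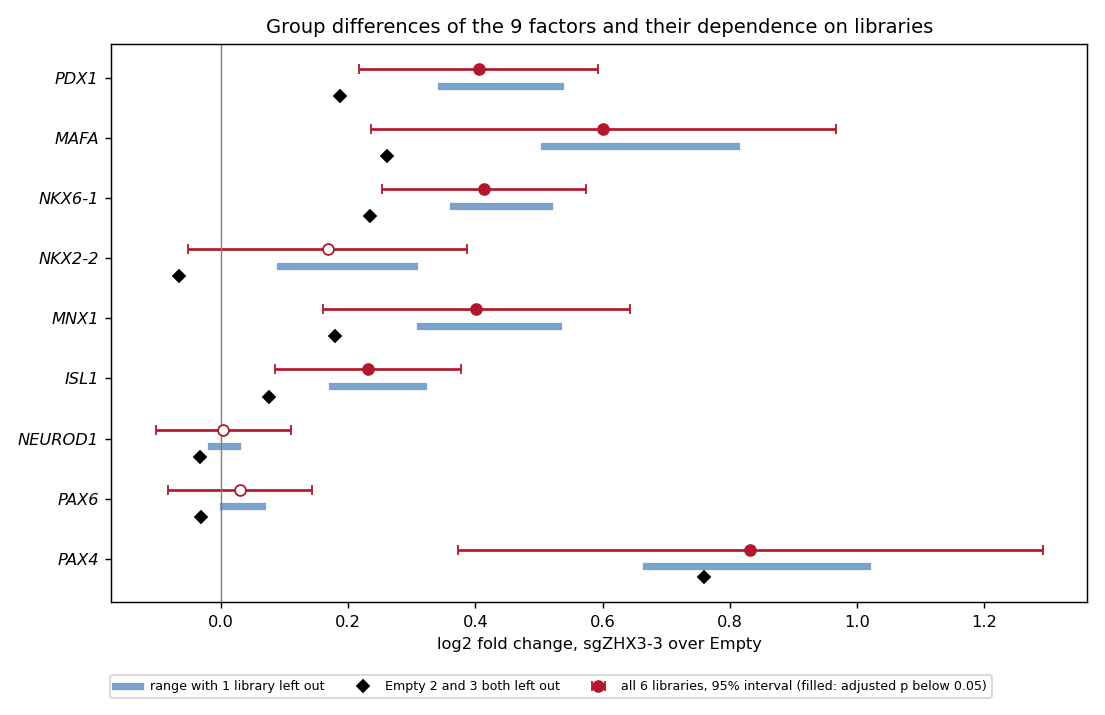
Log2 fold change (sgZHX3-3 over Empty, horizontal axis) of each factor with its 95% interval from all 6 libraries (red, filled where the adjusted p was below 0.05), the range over fits with 1 library left out (blue bars) and the value with Empty 2 and 3 both left out (black diamonds). The diamonds lie left of the blue bars for each factor except PAX4, whose value of 0.76 stayed inside its bar.

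Empty 1 lay above Empty 2 and 3 for each factor, though for PAX4 hardly above Empty 3. It was the highest Empty library for 9 of the 9 factors and for 40.8% of all tested genes. The sgZHX3-3 library 3 was the highest of all libraries for 6 of the 9 factors. The share of all tested genes for which it was highest was not computed. In mean log2 deviation from all libraries, the 9 factors lay at 0.11, 0.18 and 0.19 in sgZHX3-3 libraries 1 to 3, against 0.01, −0.25 and −0.25 in Empty 1 to 3. A list of 14 heat shock and NRF2 genes, the latter part of the defence against oxidants, ran the other way, at −0.50, −0.42 and −0.65 in sgZHX3-3 and −0.05, 0.71 and 0.91 in Empty libraries. Of these 14 stress genes 0 were higher and 8 lower by edgeR, against 7.11% and 4.98% of all tested genes. Their median log2 fold change was −1.25. DESeq2 called 11 lower and limma-voom 4, and 0 had an unadjusted edgeR p under 0.05 in the higher direction. There were 2 lower without Empty 2 or sgZHX3-3 library 2, 3 without sgZHX3-3 library 1 or 3, 5 without Empty 3 and 12 without Empty 1, and 2 with no filter on low counts. Empty 1 was the lowest Empty library for 14 of 14, and the same share over all tested genes was not computed. The list was chosen because it was seen to vary in these data, so this count is a description only. GCLM, a subunit of the enzyme that starts glutathione synthesis, had 87.7, 88.9 and 82.2 CPM in sgZHX3-3 and 131, 171 and 179 CPM in Empty libraries (log2 fold change −0.90, edgeR adjusted p = 0.000358). HSPA6 (−3.25, edgeR adjusted p = 0.0407), HMOX1 (−2.56, 0.0130), SRXN1 (−1.28, 0.0246) and PIR (−1.25, 0.00615) were also lower. Without 1 library PIR and GCLM passed each time; HMOX1 did not pass without Empty 2 or sgZHX3-3 library 2 (up to 0.067), SRXN1 without Empty 2 or any one sgZHX3-3 library (up to 0.102), and HSPA6 passed only without Empty 1. With Empty 2 and 3 both left out the log2 fold changes were −0.60 for GCLM, −1.70 for HSPA6, −1.52 for HMOX1, −0.72 for SRXN1 and −0.49 for PIR. The part of the stress genes in the differences of the 9 factors was not tested.

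**Figure D3:**
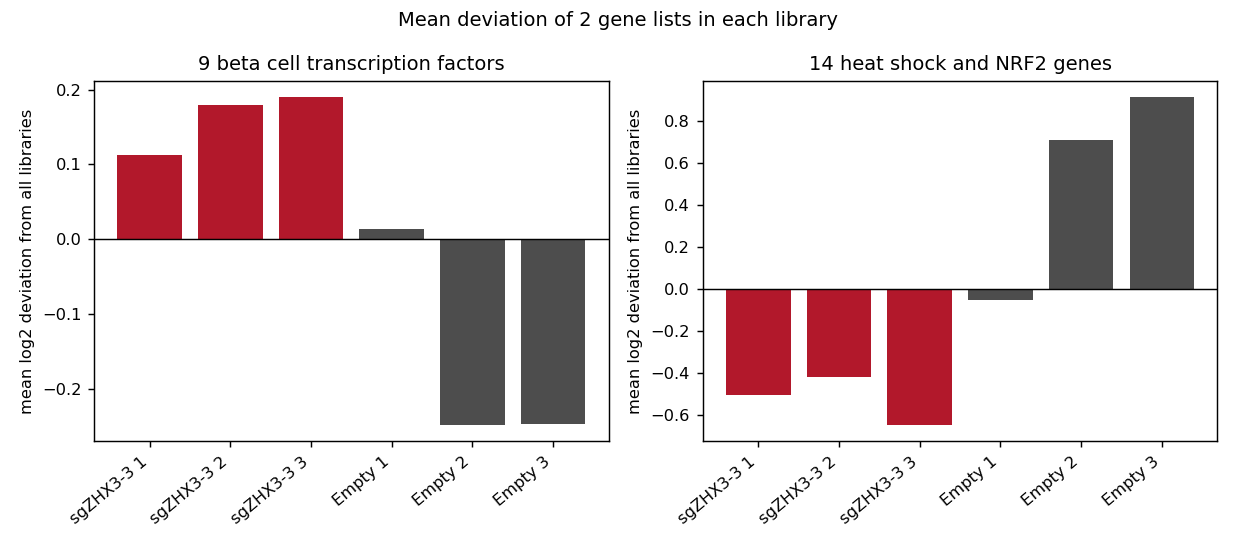
Mean log2 deviation from the mean of all 6 libraries (vertical axes, of unequal range) for the 9 factors (left) and 14 heat shock and NRF2 genes (right) in each sgZHX3-3 (red) and Empty (grey) library. Empty 2 and 3 lie at −0.25 for the factors and at 0.71 and 0.91 for the stress genes, and Empty 1 lies near 0 in both. The stress genes were chosen because they were seen to vary in these data.

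With Empty 2 and 3 both left out, the lone Empty library is assumed to vary like the sgZHX3-3 libraries, and 209 genes in all were called higher and 40 lower. The log2 fold changes of the called factors were then 0.19 for PDX1 (adjusted p = 0.325), 0.26 for MAFA (0.273), 0.23 for NKX6-1 (0.194), 0.18 for MNX1 (0.526) and 0.08 for ISL1 (0.683). ZHX3 itself was at 0.75 in that fit (edgeR adjusted p = 0.00558), as it was with all libraries. In these bulk samples, fewer cells that express a factor and less of its RNA per cell cannot be told apart.

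Ratios of counts within a library do not depend on how libraries are scaled. The log2 ratio of PDX1 to NEUROD1 was 1.68, 1.74 and 1.88 in sgZHX3-3 libraries, against 1.55, 1.26 and 1.26 in Empty libraries. The difference was 0.41 without overlap of the groups (exact permutation test, two-sided p = 0.1, the smallest that 3 against 3 allows; 0.133 adjusted over 4 ratios, of which 3 are given here). The ratio of NKX6-1 to NKX2-2 was −0.29, −0.19 and −0.38 in sgZHX3-3 libraries and −0.59, −0.54 and −0.46 in Empty libraries. This difference of 0.24 (same exact p of 0.1) was 0.30 with Empty 2 and 3 left out, and was the only one of these 3 that did not shrink there. ISL1 to PAX6 differed by 0.20 (same exact p of 0.1), with −0.01, 0.01 and 0.12 in sgZHX3-3 and −0.07, −0.20 and −0.22 in Empty libraries.

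Levels of different factors were compared per kilobase of exon, as CPM divided by the length of all exons in the basic set of GENCODE release 29. PDX1 was first in each library, at 284 ± 17.0 CPM per kb in sgZHX3-3 and 215 ± 30.7 CPM per kb in Empty libraries (SD, n = 3 each), and NKX2-2 was second, at 137 ± 11.8 and 122 ± 18.9 CPM per kb in the same order of groups. ISL1 (81.7 ± 2.25 CPM per kb), NKX6-1 (75.96 ± 3.82 CPM per kb) and NEUROD1 (73.3 ± 1.61 CPM per kb) followed in sgZHX3-3 libraries, and the ranges of NKX6-1 and NEUROD1 overlapped there. In Empty libraries the order was NEUROD1 (73.1 ± 1.72 CPM per kb), ISL1 (69.6 ± 7.13 CPM per kb) and NKX6-1 (57.0 ± 6.61 CPM per kb), with ISL1 overlapping both neighbours. MAFA (48.2 ± 4.40 CPM per kb in sgZHX3-3, 31.8 ± 7.35 CPM per kb in Empty), MNX1 (33.5 ± 4.002 and 25.4 ± 3.79 CPM per kb) and PAX6 (17.2 ± 0.389 and 16.9 ± 0.734 CPM per kb) came next, and MAFA and MNX1 overlapped in the Empty libraries. PAX4 was last, at 0.665 ± 0.156 CPM per kb in sgZHX3-3 and 0.372 ± 0.0284 CPM per kb in Empty libraries. PAX6 has many alternative exons, and over all annotated exons its level would be 9.38 CPM per kb in sgZHX3-3 and 9.19 CPM per kb in Empty libraries, with the same place in the order. By that length ISL1 (69.7 CPM per kb) stood below NKX6-1 in sgZHX3-3 libraries, so the order of these factors depends on the exon set.

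**Figure D4:**
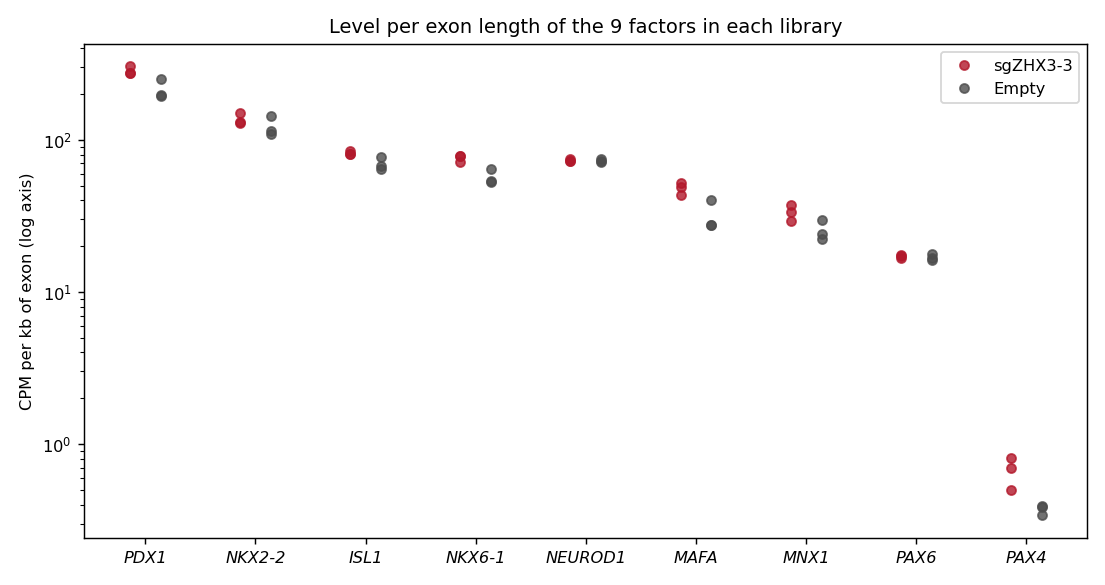
Level of each factor per kilobase of exon (CPM per kb, log axis) in each library labelled sgZHX3-3 (red) and Empty (grey), ordered by the sgZHX3-3 mean. PDX1 and NKX2-2 lead in both groups, and PAX4 lies far below the other 8 factors.

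The genes lie apart in the genome, on 8 chromosomes, with only PAX4 and MNX1 on the same one. By GENCODE release 29 (GRCh38), PDX1 (ENSG00000139515.5) is on the plus strand of chromosome 13 from 27920020 to 27926231 and ISL1 (ENSG00000016082.14) on the plus strand of chromosome 5 from 51383391 to 51394738. The others are on minus strands: MAFA (ENSG00000182759.3) on chromosome 8 from 143419182 to 143430406, NKX6-1 (ENSG00000163623.9) on chromosome 4 from 84491987 to 84498450, and NKX2-2 (ENSG00000125820.5) on chromosome 20 from 21511010 to 21514026. NEUROD1 (ENSG00000162992.3) is on chromosome 2 from 181673088 to 181680876, PAX6 (ENSG00000007372.22) on chromosome 11 from 31784779 to 31818062, PAX4 (ENSG00000106331.15) on chromosome 7 from 127610292 to 127618114 and MNX1 (ENSG00000130675.14) on chromosome 7 from 156994051 to 157010651. NEUROD1 overlaps CERKL on the same strand, so reads there can be split or dropped and its count is uncertain, and CERKL stood at −0.04 on the log2 fold scale (edgeR adjusted p = 0.697). Of 12 tested neighbours and antisense RNAs of the 9 genes, 0 were higher and 0 lower by edgeR, against 7.11% and 4.98% of all tested genes. Their median log2 fold change was 0.01. By edgeR 1 of the 12 had an unadjusted p under 0.05, and 1 was called by DESeq2 and 1 by limma-voom; 3 were called higher without Empty 1. PDX1-AS1, the antisense RNA beside PDX1, stood at 20.3, 21.6 and 25.5 CPM in sgZHX3-3 and 22.2, 20.5 and 16.7 CPM in Empty libraries (log2 fold change 0.18, edgeR adjusted p = 0.295).

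Several proteins that pair with these factors, or hold them back, were higher at the RNA level. Of 39 tested partners and cofactors 13 were higher and 0 lower by edgeR, against 7.11% and 4.98% of all tested genes. Their median log2 fold change was 0.12, against −0.002 over all tested genes. In the lower direction 1 had an unadjusted p under 0.05, and DESeq2 called 1 lower. Without 1 library the number of higher ones was 5 (without Empty 3 or sgZHX3-3 library 2) to 15 (without Empty 1), and it was 7 without Empty 2. The ID proteins, which lack a DNA-binding region and tie up the E-proteins that NEUROD1 needs, rose: ID3 had 32.9, 33.0 and 36.1 CPM in sgZHX3-3 and 23.8, 19.5 and 18.1 CPM in Empty libraries (log2 fold change 0.74, edgeR adjusted p = 0.000454). ID1 had 92.5, 102.5 and 120 CPM in sgZHX3-3 and 72.8, 55.9 and 56.5 CPM in Empty libraries (0.77, adjusted p = 0.00307), and ID2 rose by 0.35 (adjusted p = 0.00396). For both ID3 and ID1 all sgZHX3-3 libraries lay above all Empty ones. MEIS2, a homeodomain partner of PBX proteins, rose by 0.43 (edgeR adjusted p = 0.00123) and SMARCA2, an ATPase of the SWI/SNF chromatin remodeller, by 0.36 (0.000765). The LIM cofactor LDB1, which joins ISL1 to its complexes, stood at −0.02 (edgeR adjusted p = 0.838) and the E-protein gene TCF3 at 0.12 (0.255). All 5 called genes named here passed with each single library left out, while with Empty 2 and 3 both left out 3 of the 39 passed, ID3 among them (0.52, adjusted p = 0.0422).

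Of 22 tested beta cell genes known as targets of the 9 factors, 8 were higher and 0 lower by edgeR. Over all tested genes 7.11% were higher and 4.98% lower. The median log2 fold change of the 22 was 0.19. In the lower direction 1 of them had an unadjusted edgeR p under 0.05, and DESeq2 called 10 higher and 0 lower. ABCC8, the sulfonylurea receptor, had 755, 775.5 and 763 CPM in sgZHX3-3 and 545, 557 and 536 CPM in Empty libraries (0.49, edgeR adjusted p = 7.08e-05). Its Empty libraries lay together, and with Empty 2 and 3 both left out it was still called (0.49, adjusted p = 0.0106), the only one of the 22. GLP1R, the receptor for the gut hormone GLP-1, had 15.03, 15.6 and 14.9 CPM in sgZHX3-3 and 11.03, 10.8 and 10.5 CPM in Empty libraries (0.49, adjusted p = 0.00151), also with Empty 1 close to the other Empty libraries. IAPP, the amyloid peptide of the granule, did not share this: it had 929, 921 and 1037 CPM in sgZHX3-3 and 769, 566 and 557 CPM in Empty libraries (0.61, adjusted p = 0.0113). PCSK1, which cuts proinsulin, rose by 0.23 (edgeR adjusted p = 0.0176) and NPTX2, a secreted pentraxin, by 0.20 (0.0229). IAPP did not pass without sgZHX3-3 library 3 (0.0686), NPTX2 without Empty 2 or sgZHX3-3 library 2 (up to 0.125), and PCSK1 passed only without Empty 1 or sgZHX3-3 library 3. INS itself had 5771, 6404 and 7118 CPM in sgZHX3-3 and 6502, 5260 and 5206 CPM in Empty libraries and was not called (0.19, edgeR adjusted p = 0.219). The glucose transporter gene SLC2A2 (0.05, adjusted p = 0.739) was not called either. Without Empty 1, INS passed (0.30, adjusted p = 0.0155). Without 1 library the number of higher targets was 14 without Empty 1 (with 1 lower), 4 without Empty 3 and 3 without Empty 2 or sgZHX3-3 library 2.

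**Figure D5:**
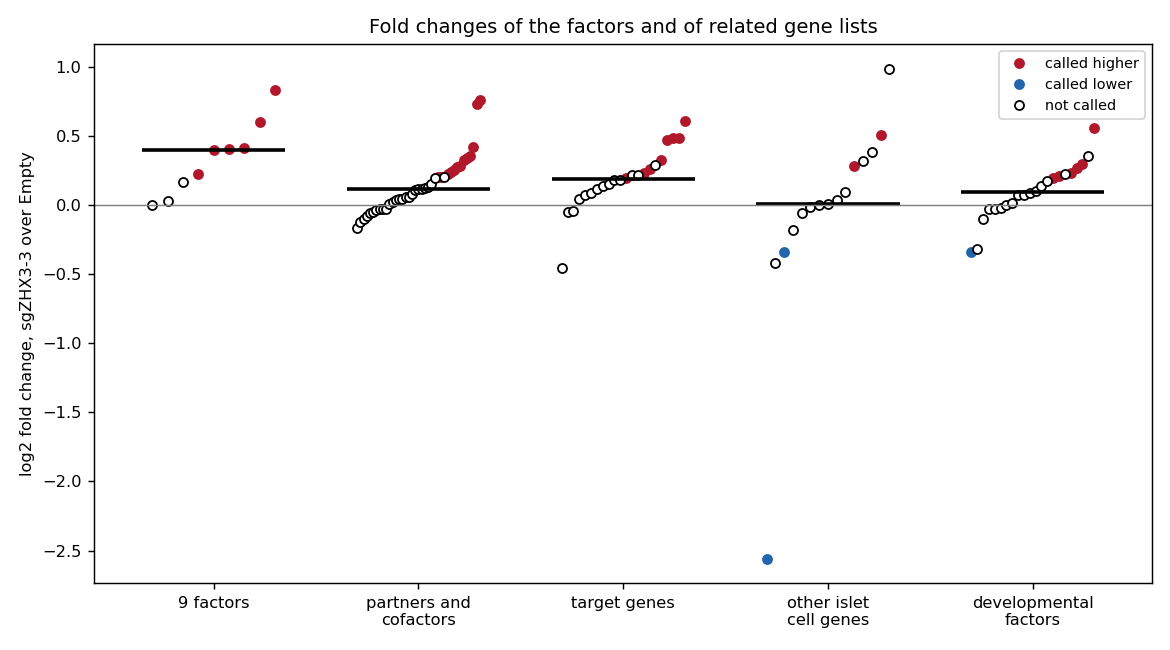
Log2 fold change (sgZHX3-3 over Empty, vertical axis) of each tested gene of the 9 factors, their partners and cofactors, their target genes, genes of other islet cells and developmental factors; black lines are medians, red and blue points are genes called higher and lower. The medians are 0.40, 0.12, 0.19, 0.01 and 0.10, and the lowest point is IRX1 at −2.56.

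Genes of the other islet cells, several of which NKX6-1, NKX2-2 and PAX4 are known to hold down in mice, moved in both directions. Of 15 tested, 2 were higher and 2 lower, against 7.11% and 4.98% of all tested genes. Their median log2 fold change was 0.01. Higher calls numbered 3 without Empty 1 and 1 without Empty 2, Empty 3 or sgZHX3-3 library 2, while 2 were lower in each of these fits. Against Empty 1 alone 1 was higher and 1 lower. The alpha cell homeobox gene IRX1 had 0.112, 0.1003 and 0.199 CPM in sgZHX3-3 and 1.05, 0.693 and 0.815 CPM in Empty libraries (−2.56, edgeR adjusted p = 0.000707). IRX2, a homeobox gene of the same cluster, had 29.8, 33.5 and 29.5 CPM in sgZHX3-3 and 39.3, 39.7 and 38.0 CPM in Empty libraries (−0.34, adjusted p = 0.00728). In both genes the groups were apart, and Empty 1 was not the Empty library nearest to the sgZHX3-3 ones. Against Empty 1 alone IRX1 was also called (−2.87, adjusted p = 0.0182), and IRX2 was not (−0.35, 0.134). LOXL4, an enzyme that cross-links collagen and is found in alpha cells, rose by 0.51 (0.00126). SST, the hormone of delta cells, stood at 7.51 ± 1.18 CPM in sgZHX3-3 and 7.63 ± 2.08 CPM in Empty libraries (SD, n = 3 each), and the glucagon gene GCG at 0.377 ± 0.0273 CPM in sgZHX3-3 and 0.190 ± 0.0669 CPM in Empty libraries. Neither was called (edgeR adjusted p = 0.976 for SST and 0.0964 for GCG).

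Among 22 tested factors that act upstream of the 9 or beside them in development, 6 were higher and 1 lower. Over all tested genes 7.11% were higher and 4.98% lower. The median log2 fold change of the 22 was 0.10. MAF, a relative of MAFA, had 50.3, 53.6 and 54.9 CPM in sgZHX3-3 and 40.4, 34.1 and 33.5 CPM in Empty libraries (0.56, edgeR adjusted p = 0.000669). MAFF, a small MAF protein without an activation domain, was lower at 24.5, 24.4 and 25.1 CPM in sgZHX3-3, against 29.1, 29.9 and 34.5 CPM in Empty libraries (−0.34, adjusted p = 0.0125). Of the MAF family genes named here, MAFA and MAF were thus higher and MAFF lower, with no overlap of the groups in any of the 3. GATA4, a factor of endoderm (0.27, edgeR adjusted p = 0.0140), and MYT1, a factor of endocrine precursors (0.23, 0.0169), were higher. Neither passed without Empty 2, without Empty 3 or without sgZHX3-3 library 2 (adjusted p up to 0.11), and MAFF did not pass without Empty 3 or sgZHX3-3 library 2 (up to 0.0887). FOXA2 (0.10, edgeR adjusted p = 0.191), RFX6 (−0.03, 0.817) and SOX9 (0.17, 0.299) were not called, and the precursor factor NEUROG3, at 0.153 CPM on average in sgZHX3-3 and 0.125 CPM in Empty libraries, was too low to be tested. SOX9 passed without Empty 1 (0.29, adjusted p = 0.0416). Without sgZHX3-3 library 2, Empty 2 or Empty 3 there was 1 called higher. With Empty 2 and 3 both left out 0 of the 22 were called by edgeR, and 5 had an unadjusted p under 0.05 in the higher and 1 in the lower direction.

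The genes whose levels ran closest to each called factor over the 6 libraries differed between factors. Likeness was the Pearson correlation of log2 CPM over 6 libraries among 10442 other genes that averaged 10 CPM or more; since the libraries fall into groups and share their scaling, it is a description with no test. For PDX1 the closest genes were VEGFA (0.9982), NEURL1 (0.9972) and IAPP (0.9972), and for MAFA they were ADRBK1 (0.9980), CELF4 (0.9966) and TMEM184A (0.9965). NKX6-1 ran with LINGO1 (0.9996) and GATA4 (0.9983), MNX1 with RPL13 (0.9986), JSRP1 (0.9951) and C20orf24 (0.9949), and ISL1 with AHCYL2 (0.9975), ZADH2 (0.9967) and C16orf45 (0.9965). NKX2-2 ran with ACVR1B (0.9957), C1orf35 (0.9954) and CAPN1 (0.9927), and PAX4 with TARS (0.9920), BMP2 (0.9898) and CD24 (0.9861). For NEUROD1 and PAX6, which barely varied, the closest were GCH1 (0.9761), GBE1 (0.9755) and C22orf39 (0.9690), and EMC8 (0.9901), PDE3B (0.9871) and PEX19 (0.9819). Over the 6 libraries 432 genes were at 0.95 or more with PDX1, 429 with MNX1, 427 with NKX6-1 and 412 with MAFA. With ISL1 there were 247, with NKX2-2 216 and with PAX4 67, but 9 with NEUROD1 and 7 with PAX6. For all factors but NEUROD1 and PAX6 a value this high therefore sets no single gene apart. PDX1, MAFA, NKX6-1, ISL1 and MNX1 also ran with each other, at 0.9174 to 0.9915, and PAX4 with them at 0.6214 to 0.793.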

How the data were processed

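RNA from 6 EndoC-βH1 libraries was prepared with a stranded NEBNext kit, per the labels' protocols, and the authors deposited raw read counts per gene for all of them. The submitters' processing notes name STAR, featureCounts and hg38; no source used here gives their versions, the annotation or the strand setting. From the deposited counts, genes were kept by edgeR's filterByExpr (minimum count 10, total 15), scaled by TMM (factors 0.984 to 1.02) and tested with edgeR 4.0.16 (quasi-likelihood, robust, group only; R 4.3.3), with Benjamini-Hochberg adjusted p below 0.05 over all 16199 tested genes as the call. Standard errors came from the fold change and F. CPM values use TMM-scaled library sizes. Alternatives were RLE size factors, library totals, no filter, 1 CPM in 3 libraries, DESeq2 1.42.0, limma-voom (limma 3.58.1), the replicate block, each library left out, and Empty 2 and 3 both left out. Depth was 45101454 to 61051884 counts per library, with a common biological coefficient of variation of 6.91%. The fitting procedure was tested on simulated counts in which no library stood apart from its group.

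The 9 factors and the gene lists were chosen with earlier results of these data known, and the stress list in particular because it was seen to vary. Named genes were the 9 factors, ZHX3, up to 5 called genes of each list with the smallest adjusted p, a set of well-known genes given whether or not called, neighbours that overlap a factor or lie beside it, and up to 3 genes most alike to each factor; some results that this rule names are not reported here. TLE5, CLTRN and PLUT stand in the table under older names. Promoter windows are RefSeq's, and exon lengths GENCODE's.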

Additional observations from a re-analysis of the deposited data

How the results depend on the processing

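ZHX3 kept its direction and its call under each alternative run, with a log2 fold change between 0.71 and 0.78. Of 126 values of the 9 factors under the alternatives, 83 kept direction and call or lack of call. Another 34 kept direction and lost the call, 1 gained it and 8 changed sign. Only the 6 called factors could lose a call, so all 34 losses were theirs. Part of the 83 were values of NKX2-2, NEUROD1 and PAX6 that stayed uncalled. The 8 sign changes were all in NKX2-2, NEUROD1 or PAX6. With 1 library left out 1 to 7 factors were higher, 474 to 1792 of all genes were higher and 184 to 1499 lower. With Empty 2 and 3 both left out these counts were 0 factors, 209 genes higher and 40 lower. With library totals only, 904 genes were higher and 1272 lower, against 1151 and 807 with TMM; DESeq2 called 1336 and 967, and limma-voom 1165 and 826. The cause of these shifts was not tested. Deviations from the group mean of same-numbered libraries correlated at −0.24, 0.13 and −0.23, and Empty 1 correlated best with sgZHX3-3 library 3 (0.36). Chi-square per gene between 2 libraries, which also rises with depth, was 23.3 and 22.3 for Empty 1 against Empty 2 and 3. It was 3.64 between Empty 2 and 3. For sgZHX3-3 library 3 it was 21.4 against library 1 and 12.9 against library 2, and 4.57 between those 2. Empty 1 and sgZHX3-3 library 3 thus lay apart from the rest of their groups. With 3 libraries per group, the correlations of deviations therefore cannot decide whether the replicate numbers pair the libraries. With the replicate block 3 factors were higher (PDX1, MAFA and NKX6-1), and 516 genes were higher and 239 lower. Signs turned for some values near 0 and for some further from it. With all libraries the log2 fold changes were 0.30 for MNX1-AS1, 0.19 for INS, 0.17 for SOX9 and 0.17 for NKX2-2. With Empty 2 and 3 both left out the log2 fold changes were −0.066 for NKX2-2, −0.032 for NEUROD1 and for PAX6, −0.014 for INS, −0.072 for SLC2A2, 0.079 for LDB1, 0.023 for RFX6, −0.036 for SOX9 and −0.029 for MNX1-AS1. With library totals only they were −0.033 for NEUROD1 and −0.0059 for PAX6. SST was 0.034 with limma-voom and 0.0015 with the replicate block. With 1 library left out they ranged from −0.015 to 0.025 for NEUROD1, from −0.0064 to 0.11 for SLC2A2, from −0.068 to 0.019 for LDB1, from −0.064 to 0.026 for RFX6, from −0.17 to 0.23 for SST and from −0.082 to 0.042 for ELP4. PAX4 rests on 50 to 110 counts per library, so counting error is a larger part of its spread than for the other 8 factors.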
